A study of Mus musculus with 6 samples.

Results

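Calbindin, Klotho and the other genes of renal calcium handling were followed in the kidneys of MRL and LPR mice. The set holds 10 genes, Calb1, S100g, Trpv5, Trpv6, Slc8a1, Atp2b1, Vdr, Pth1r, Casr and Kl, and every probe whose gene name on the array is one of them was taken, 19 of the 56605 probes that are not controls and 10 of 36870 gene names. Calb1 was chosen by its lower signal in the same LPR and MRL mice, so its values are given as a description without a test. The other 9 genes were chosen for their role, with earlier results of these data known.

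TA was done on whole kidneys of female mice at 6 months of age, with 1 mouse for each of 6 arrays and no pooling. The control group was 3 MRL/MpJ mice (MRL mice), and the disease group was 3 MRL/MpJ-Fas lpr/lpr mice (LPR mice), which share the MRL background, carry the lpr mutation of Fas in every cell of the body and develop lupus nephritis. No agent was given to either group. A level below is the log2 signal of a probe minus the 75th percentile of its array, a change is LPR minus MRL on that log2 scale, and probes are compared only with themselves. Because the whole kidney was measured, fewer cells of a type and less RNA per cell cannot be told apart.

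Most filtered calcium returns to the blood between the cells of the proximal tubule and the thick ascending limb, and the late distal convoluted tubule and connecting tubule set the final amount. There calcium enters through the apical channels TRPV5 and TRPV6, is carried across the cell by calbindin-D28k (Calb1) and calbindin-D9k (S100g), and leaves through the exchanger NCX1 (Slc8a1) and the calcium pump PMCA1 (Atp2b1). Parathyroid hormone, active vitamin D, the calcium-sensing receptor and Klotho, the co-receptor for the hormone FGF23, tune this route.

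Between 69.6% and 73.5% of the spots of an array were well above background, none was saturated, and limma compared the groups in 39924 probes, with p-values adjusted over all of them by Benjamini-Hochberg at a threshold of 0.05. Of these, 6.17% were lower and 6.53% were higher in LPR mice, and the median change was -0.14, the shift against which a change should be read. The kidney markers checked (7 of the distal convoluted tubule, 8 of the connecting tubule and principal cells, 7 of intercalated cells, 6 of the thick ascending limb, 9 of the proximal tubule and 5 of podocytes) were all well above background on all 6 arrays. Of 10 leukocyte markers, 8 were higher in LPR mice, and the mean level of the list was -1.15 to -0.86 in MRL mice and 1.41 to 1.45 in LPR mice. Of 6 fibroblast and smooth muscle markers 3 were higher, and the list's mean was 0.37 to 0.68 against 1.30 to 1.40. Of 5 adipose tissue markers 1 was lower, and the list's mean was 0.25 to 0.39 in MRL mice and -2.43 to -0.28 in LPR mice. No defining marker of these 3 lists was at background on all arrays, and the part of these tissues in the results below was not tested. For Fas, the brighter of the 2 probes had a change of -0.47 that did not pass (adjusted p = 0.234 by limma). The other, A_52_P73385, was well above background in the LPR mice only and at least 1.47-fold higher in them (adjusted p = 0.0338 by limma). The 2 probes had changes of opposite sign, and no check of the labels was taken from them. LPR 1 had the brightest array, with a 75th percentile of 942 against 706 to 759 for the others. The array names end in 2 numbers, and the first was read as the column of the slide, which the labels do not state. So read, the 3 MRL arrays and LPR 1 lay in column 1 and LPR 2 and LPR 3 in column 2. Only column 1 then holds both groups.

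The probe ends show what was read for the genes on which the results turn. Each probe is 60 bases long, and its last 30 bases are given 5′ to 3′ as in the array annotation. Capitals mark AATAAA, the usual signal for adding a poly(A) tail, searched for on the strand of the probe. The 3 probes of Calb1 lie on chromosome 4 of mm9, at chr4:15832543-15832602, chr4:15835078-15835137 and chr4:15833582-15833641, in the order given here.
Calb1 A_51_P335801: aagtctactgccagagagtatgaccatagc
Calb1 A_66_P102374: tggggtttctggattcttggcaacattcta
Calb1 A_55_P2181602: tttaaagattagccaacAATAAAtcctaga
Trpv5 A_51_P239601: ctatggttatgaatagctggatgatataca
Trpv6 A_55_P2111444: accttccAATAAAatcatttcctgatcccc
Slc8a1 A_52_P313285: gaaccaaaatggctaagaagaggattgaaa
Slc8a1 A_55_P2080758: attggagagccccgtctggtggagatgagt
Slc8a1 A_55_P2292435: gaacatccgtactaggccggaagtcagaaa
Slc8a1 A_52_P244931: taacttgaatttgtgatgtaagaagcaggg
Vdr A_52_P334562: cagcaagatttcccaagataggagaatcct
Vdr A_65_P19862: taaagtcattccatcagaggtgttctcaga
Kl A_55_P2766013: ttttatttgttggtccaatttcccattaat
Kl A_52_P112159: gttgtgaatttagtacattcagagttgaat
The motif was in 2 of the 19 probes of the set, and in 9.77% of all 56605 probes. The first 2 probes given here for Slc8a1 lie close together on chromosome 17 and the other 2 farther off, at chr17:81844210-81844269, chr17:81844837-81844896, chr17:81787868-81787927 and chr17:81666267-81666326, and are annotated to 4 different transcripts.

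Of the 9 genes other than Calb1, 4 were lower in LPR mice by their brightest probe (Trpv5, Slc8a1, Vdr and Kl), 0 were higher and 5 did not pass. Over all genes on the array taken in this way, 5.47% were lower and 7.12% were higher. By probe, 7 of the 15 tested probes of these 9 genes were lower, 0 were higher and 8 did not pass. In 11 of the 15 probes every LPR mouse was below every MRL mouse, which was so for 26.9% of all tested probes. The median change of the 15 probes was -0.58 beside -0.14 for all tested probes. The count of 4 genes rests on the spread of few mice. It was 2 without MRL 1, MRL 2 or MRL 3, 3 without LPR 2, and 1, Trpv5, without LPR 1 or LPR 3.

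**Figure D1:**
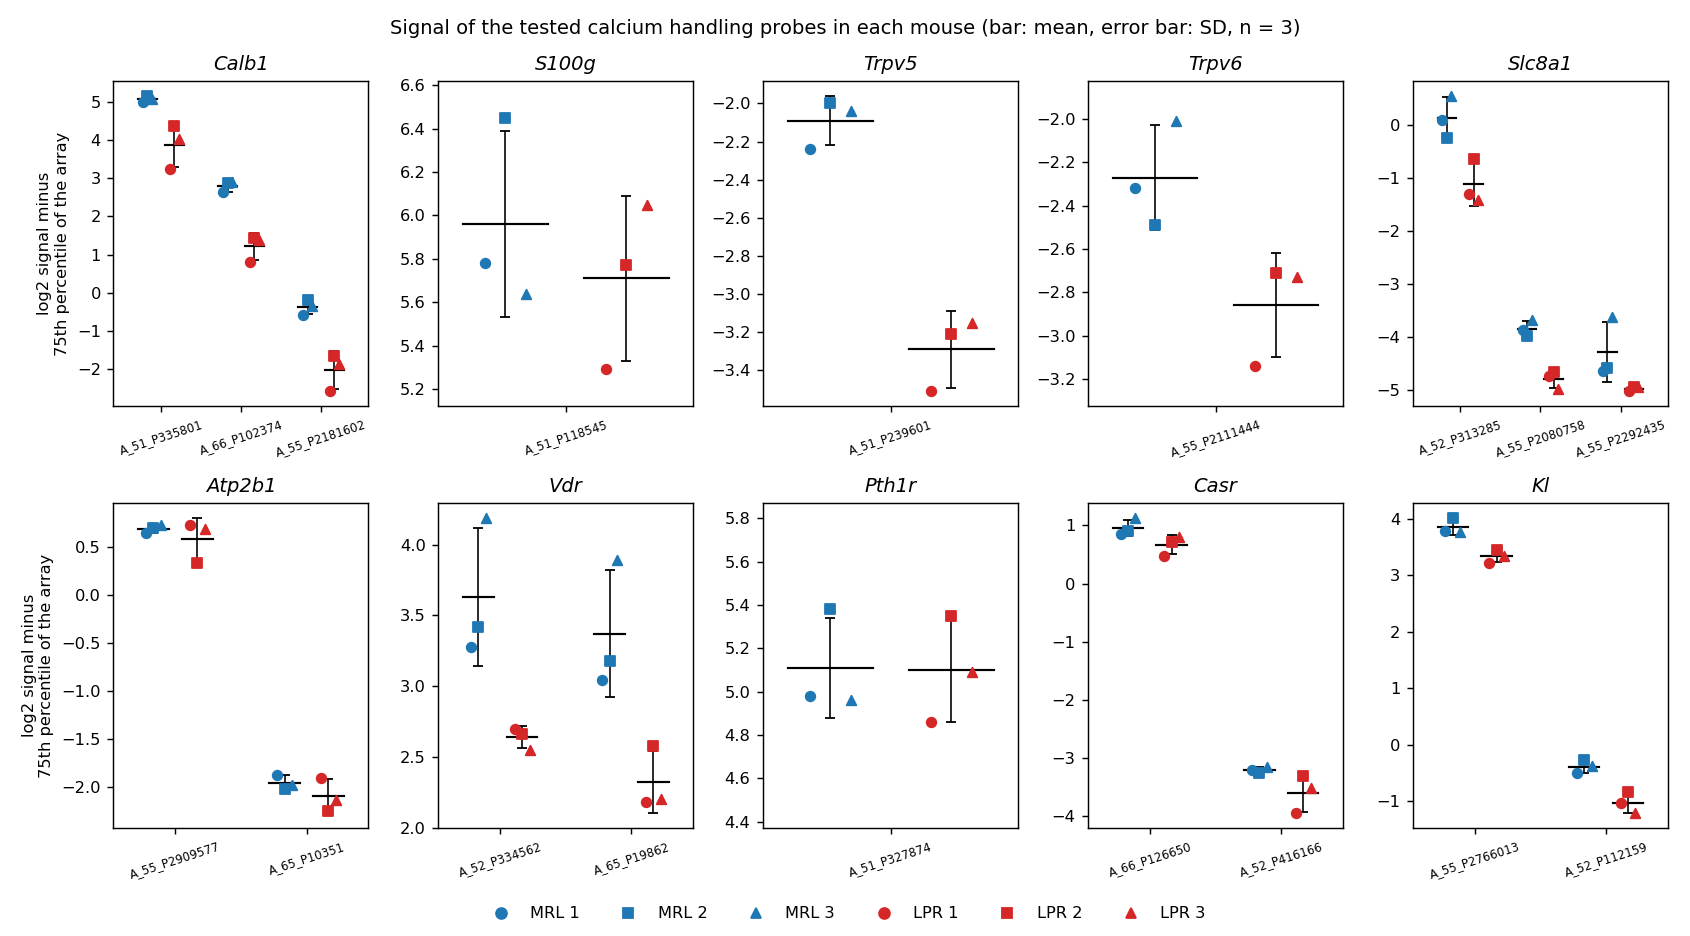
Log2 signal minus the 75th percentile of the array (vertical axes, a separate scale for each gene) for the 18 tested probes of the 10 genes, with 1 point per mouse, the mean as a bar and the SD as an error bar (n = 3). For Calb1, Trpv5, Trpv6, Slc8a1, Vdr, Casr and Kl all LPR mice lie below all MRL mice, whereas S100g, Atp2b1 and Pth1r overlap.

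Calb1, the calcium buffer of the distal convoluted and connecting tubule, was lower in every LPR mouse on all 3 of its probes. The brightest, A_51_P335801, gave 4.99, 5.16 and 5.08 in MRL mice and 3.23, 4.38 and 4.02 in LPR mice. The gap between the lowest MRL mouse and the highest LPR mouse was 0.61, and LPR 1 was the lowest. The means were 5.07 ± 0.08 and 3.88 ± 0.59 (SD, n = 3), a change of -1.20 or a 2.29-fold lower signal.

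The second probe of Calb1, A_66_P102374, gave 2.63, 2.88 and 2.90 in MRL mice against 0.80, 1.44 and 1.39 in LPR mice, a 3.02-fold lower signal. The remaining probe, A_55_P2181602, which holds AATAAA near its end, gave -0.58, -0.20 and -0.36 against -2.59, -1.65 and -1.86, a 3.14-fold lower signal. LPR 1 was the lowest mouse on all 3 probes, and the spread of the LPR mice was wider than that of the MRL mice on each of them. With the column of the slide as a block, which leaves LPR 1 against the 3 MRL mice as the comparison, the changes were -1.84, -2.01 and -2.21.

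S100g encodes the smaller calbindin, which shares the role of calcium carrier but is a separate gene on the X chromosome. It gave 5.78, 6.45 and 5.64 in MRL mice and 5.29, 5.77 and 6.05 in LPR mice. The groups overlapped, and the change of -0.25 (standard error 0.27) did not pass (adjusted p = 0.558 by limma).

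Trpv5, the apical calcium channel of the distal tubule, was lower in LPR mice. Its probe on chromosome 6, chr6:41602985-41603044, gave -2.24, -2.00 and -2.04 in MRL mice and -3.51, -3.21 and -3.15 in LPR mice. Every LPR mouse lay at least 0.91 below every MRL mouse, and LPR 1 was again the lowest. The signal was 2.29-fold lower, with a change of -1.20 (standard error 0.14, adjusted p = 0.00200 by limma). Calb1 aside, which was given without a test, Trpv5 was the only gene of the set that passed under all 21 alternatives run. Its adjusted p by these was from 0.000342 to 0.0251 and its change from -1.42 to -0.87.

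Trpv6, its close relative and neighbour on chromosome 6, gave -2.32, -2.49 and -2.01 in MRL mice and -3.14, -2.71 and -2.73 in LPR mice. The groups did not overlap, but the change of -0.58 (standard error 0.18) did not pass (adjusted p = 0.0769 by limma). It passed under 2 alternatives, an intensity trend (0.0472) and normexp background correction (0.0364). The difference between the changes of Trpv5 and Trpv6 was not tested.

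Slc8a1, the sodium-calcium exchanger through which calcium leaves the cell, was lower on 2 of its 3 tested probes. The brightest of these is annotated to a non-coding RNA of the gene. Whether it also reads the coding transcripts was not tested. The brightest, A_52_P313285, gave 0.09, -0.25 and 0.54 in MRL mice and -1.30, -0.65 and -1.42 in LPR mice, a 2.37-fold lower signal. Its change of -1.25 (standard error 0.27) passed (adjusted p = 0.0277 by limma), but not without MRL 1 (0.0788), MRL 3 (0.0715), LPR 1 (0.0807) or LPR 3 (0.0838), and not with the slide column as a block (0.122).

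A second Slc8a1 probe, A_55_P2080758, gave -3.86, -3.97 and -3.68 in MRL mice against -4.73, -4.66 and -4.97 in LPR mice. The spread within each group was small and the change of -0.95 (standard error 0.13) passed (adjusted p = 0.00504 by limma), also with any single mouse left out. With the slide column as a block it was 0.0700. A further probe, A_55_P2292435, gave -4.63, -4.58 and -3.62 against -5.02, -4.93 and -4.94, with MRL 3 far above the other MRL mice, and did not pass (change -0.69, adjusted p = 0.140 by limma). The fourth probe was not well above background on any array and was not tested.

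Atp2b1, the plasma membrane calcium pump that also carries calcium out of the cell, did not pass on either probe. Its brighter probe gave 0.64, 0.69 and 0.72 in MRL mice and 0.73, 0.33 and 0.68 in LPR mice, with overlapping groups and a change of -0.10 (standard error 0.13, adjusted p = 0.630 by limma). Its other probe gave -1.87, -2.02 and -1.97 against -1.90, -2.24 and -2.13, with a change of -0.14 (standard error 0.12, adjusted p = 0.490 by limma), the same as the median of all tested probes.

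**Figure D2:**
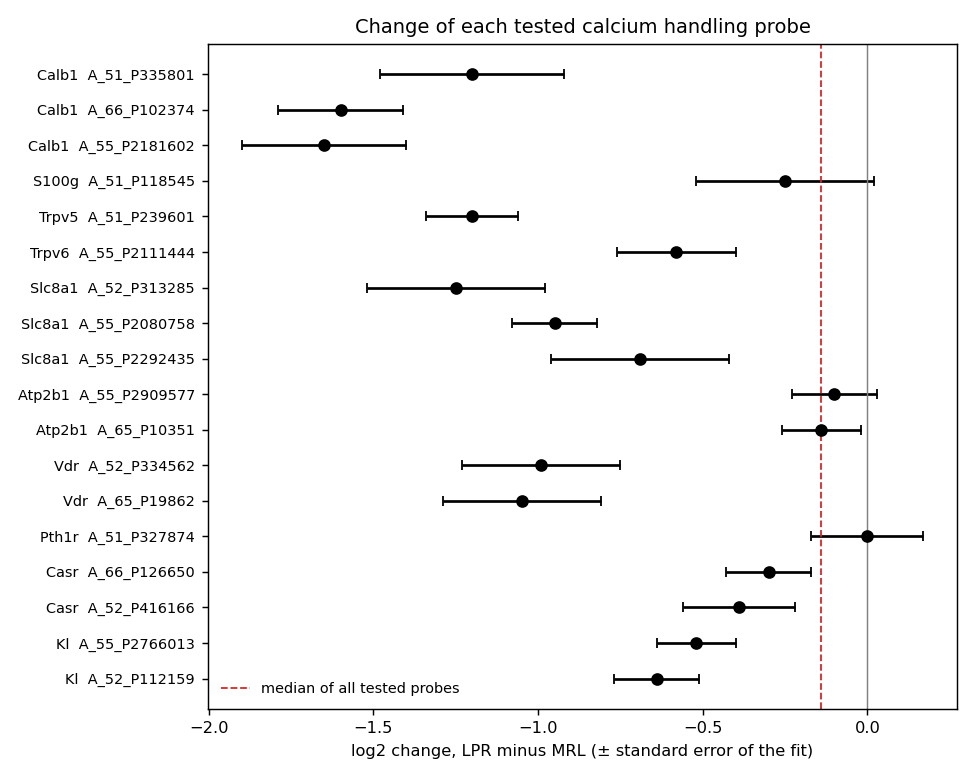
Log2 change (LPR minus MRL, horizontal axis) of the 18 tested probes, with the standard error of the limma fit as bars. The dashed line is the median of all tested probes, -0.14. The 3 Calb1 probes, Trpv5, the 2 brightest Slc8a1 probes and Vdr lie near or beyond -1, and the 2 Atp2b1 probes and Pth1r lie at or above the dashed line.

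Vdr, the nuclear receptor of active vitamin D, was lower in LPR mice on both probes. A_52_P334562 gave 3.28, 3.42 and 4.19 in MRL mice and 2.70, 2.66 and 2.55 in LPR mice, a 1.99-fold lower signal. A_65_P19862 gave 3.04, 3.18 and 3.89 against 2.18, 2.58 and 2.20, a 2.07-fold lower signal. MRL 3 was the highest mouse on both probes, the LPR mice lay close together, and the groups did not overlap.

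The changes of Vdr were -0.99 (standard error 0.24, adjusted p = 0.0387 by limma) and -1.05 (standard error 0.24, adjusted p = 0.0341 by limma). Without MRL 3, the highest mouse, they were -0.71 and -0.79 and both passed (0.0276 and 0.0463). The first probe did not pass without MRL 2 (0.0681), LPR 1 (0.0857), LPR 2 (0.0822) or LPR 3 (0.108). The second did not pass without MRL 2 (0.0645), LPR 1 (0.0927) or LPR 3 (0.0996). With the slide column as a block the adjusted p was 0.210 and 0.142.

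Pth1r, the receptor of parathyroid hormone, was the gene of the set with the smallest change. It gave 4.98, 5.38 and 4.96 in MRL mice and 4.86, 5.35 and 5.09 in LPR mice. The groups overlapped, with means of 5.11 ± 0.23 and 5.10 ± 0.24 (SD, n = 3) and an adjusted p of 0.989 by limma.

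Casr, the calcium-sensing receptor, had every LPR mouse below every MRL mouse on both probes but did not pass. A_66_P126650 gave 0.85, 0.91 and 1.13 in MRL mice and 0.48, 0.72 and 0.80 in LPR mice, with a change of -0.30 (standard error 0.13, adjusted p = 0.185 by limma). A_52_P416166 gave -3.21, -3.26 and -3.15 against -3.95, -3.31 and -3.52, with a change of -0.39 (standard error 0.17, adjusted p = 0.178 by limma). The gaps between the groups were narrow, and LPR 1 was the lowest on both.

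Kl encodes Klotho, which is made in the distal tubule and to a lesser extent in the proximal tubule. The brighter probe, A_55_P2766013, at chr5:151796302-151796361, gave 3.78, 4.02 and 3.77 in MRL mice and 3.22, 3.45 and 3.35 in LPR mice. The other, A_52_P112159, at chr5:151789486-151789545 and annotated to a different transcript, gave -0.51, -0.28 and -0.38 against -1.03, -0.84 and -1.21. The groups did not overlap on either probe.

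The signal of Kl was 1.43-fold and 1.56-fold lower, with changes of -0.52 (standard error 0.12, adjusted p = 0.0357 by limma) and -0.64 (standard error 0.13, adjusted p = 0.0248 by limma). The direction held under all alternatives, with changes from -0.64 to -0.44 and from -0.74 to -0.55. The calls did not: the brighter probe passed without LPR 2 (0.0438) and failed without MRL 1 (0.0776), MRL 2 (0.121), MRL 3 (0.0794), LPR 1 (0.0867) or LPR 3 (0.0982). The other probe passed without LPR 2 (0.0212) and failed without MRL 1 (0.0502), MRL 2 (0.0908), MRL 3 (0.0782), LPR 1 (0.0643) or LPR 3 (0.0771). With the slide column as a block the adjusted p was 0.103 and 0.145.

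Promoter sequence was available from RefSeq (build GRCm38.p6) for 9 of the 10 genes, as 12 promoters. The 250 bases before the start of a gene are shown for Trpv5, Vdr and Kl, which were lower, and for S100g, which did not pass, so that they can be read beside each other. Capitals mark a half-site for nuclear receptors, which is the motif AGGTCA, or the motif GGTTCA, or the motif AGTTCA, or the motif GGGTCA. They also mark TATAAA and the GC box with the letters GGGCGG. Each was searched on both strands, and a match on the other strand is read here as its reverse complement.
Trpv5, chr6:41680724-41680973, minus strand: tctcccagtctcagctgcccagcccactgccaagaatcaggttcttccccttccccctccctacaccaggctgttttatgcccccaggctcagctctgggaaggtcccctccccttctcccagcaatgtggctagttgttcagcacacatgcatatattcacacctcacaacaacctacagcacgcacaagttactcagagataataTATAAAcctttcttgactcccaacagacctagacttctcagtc
Vdr, chr15:97908297-97908546, minus strand: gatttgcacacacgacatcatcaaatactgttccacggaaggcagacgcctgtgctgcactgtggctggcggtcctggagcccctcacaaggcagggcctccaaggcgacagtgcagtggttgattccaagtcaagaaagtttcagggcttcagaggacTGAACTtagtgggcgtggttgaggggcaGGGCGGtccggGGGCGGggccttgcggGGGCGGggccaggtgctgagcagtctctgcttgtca
Kl, chr5:150952357-150952606, plus strand: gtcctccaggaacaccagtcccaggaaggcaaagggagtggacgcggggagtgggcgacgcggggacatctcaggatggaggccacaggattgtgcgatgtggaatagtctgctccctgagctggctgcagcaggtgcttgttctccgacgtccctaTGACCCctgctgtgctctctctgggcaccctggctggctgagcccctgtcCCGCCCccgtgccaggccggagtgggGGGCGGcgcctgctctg
S100g, chrX:162964600-162964849, minus strand: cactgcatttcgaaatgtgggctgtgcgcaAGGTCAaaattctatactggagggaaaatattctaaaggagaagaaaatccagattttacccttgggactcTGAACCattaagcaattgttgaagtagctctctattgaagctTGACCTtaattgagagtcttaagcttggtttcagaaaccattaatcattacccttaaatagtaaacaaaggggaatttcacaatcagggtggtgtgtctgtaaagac
Of the 12 promoters, 4 held at least 1 half-site, those of S100g (3), Trpv6 (2), Vdr (1) and Kl (1), and 38.6% of all 32851 mouse promoters of this table did. A pair of half-sites as a direct repeat spaced by 3 bases was in none of the 12 and in 0.0396% of all. TATAAA, in the Trpv5 window, was in 12.4% of all promoters. GGGCGG, which was in the Vdr window 3 times and in the Kl window 2 times, was in 32.7%. A match describes the letters only, and the absence of one says nothing of the receptor.

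Of 12 genes of vitamin D metabolism, 1 was higher, 1 was lower and 10 did not pass, with a median change of -0.03. These shares are near those of all genes, 7.12% higher and 5.47% lower, and nothing is read from them about the list. Cyp24a1 degrades active vitamin D and is a known target of its receptor. It gave 2.19, 3.55 and 4.57 in MRL mice and 0.40, 0.93 and 2.11 in LPR mice, a 4.89-fold lower signal, and the nearest mice of the groups were 0.08 apart. Its change of -2.29 (standard error 0.66) did not pass (adjusted p = 0.0670 by limma) and passed under 5 of 21 alternatives, without MRL 1 (0.0346) among them.

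Cyp27b1, which makes active vitamin D, gave -1.53, 0.69 and -3.94 in MRL mice and -1.47, -0.69 and 0.92 in LPR mice. The MRL mice spanned more than the LPR mice, the groups overlapped, and the change of 1.18 (standard error 1.15) did not pass (adjusted p = 0.519 by limma). Rxrg, a partner receptor of Vdr, was 2.01-fold higher (adjusted p = 0.0136 by limma), and Lrp2, which takes up vitamin D with its binding protein in the proximal tubule, was 1.31-fold lower (adjusted p = 0.0492 by limma). Lrp2 did not pass with any 1 of the 6 mice left out (0.0764 to 0.154), and Rxrg passed in each case. Rxrg did not pass with the replicate block (0.0541) or by the methods' t-test on log2 (0.0694) or linear values (0.102).

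**Figure D3:**
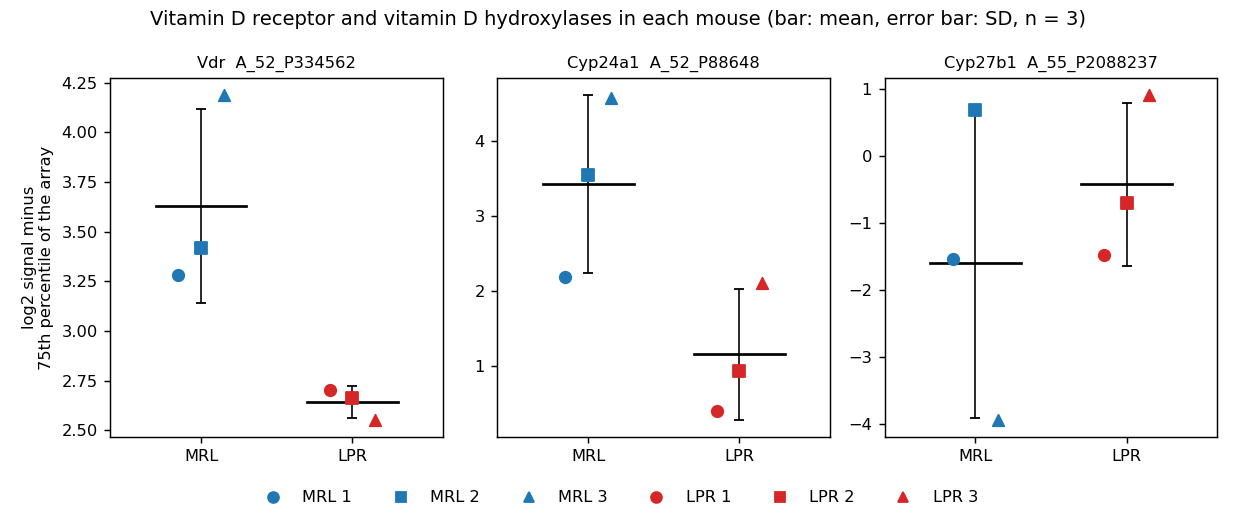
Log2 signal minus the 75th percentile of the array (vertical axes, separate scales) for the brightest probes of Vdr, Cyp24a1 and Cyp27b1 in each mouse, with the mean as a bar and the SD as an error bar (n = 3). MRL 3 is the highest of the MRL mice for Vdr and Cyp24a1 and the lowest of all mice for Cyp27b1, at -3.94.

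Among the other calcium transporters and buffers, 11 of 12 genes were tested, and 2 were lower, 0 were higher and 9 did not pass, with a median of -0.16. Atp2b2 and Atp2b3, further calcium pumps of the plasma membrane, were 1.96-fold and 1.56-fold lower (adjusted p = 0.00974 and 0.0475 by limma). Atp2b2 passed with any single mouse left out, but not with the slide column as a block (0.0615) or by the methods' t-test on log2 (0.0546) or linear values (0.0828). Atp2b3 failed without MRL 1, MRL 2, MRL 3, LPR 1 or LPR 3 (0.085 to 0.133). Of 16 tested genes of parathyroid hormone, FGF23 and calcium receptor signalling, none passed by limma, where 5.47% of all genes were lower and 7.12% higher. At an unadjusted p under 0.05, 4 of the 16 were lower and 0 higher, beside 18.9% lower and 10.5% higher of all genes. The median of the 16 was -0.19, and Fgfr1, the receptor that works with Klotho, had a change of -0.10 (adjusted p = 0.626 by limma).

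Of 14 tested regulators of TRPV5, 1 was higher, 1 was lower and 12 did not pass, with a median of 0.02, again near the 7.12% higher and 5.47% lower of all genes. Plaat3 was 1.82-fold higher (adjusted p = 0.00259 by limma). Wnk4, a kinase of the distal tubule, was 1.45-fold lower (adjusted p = 0.0192 by limma), but failed without MRL 1, MRL 2, MRL 3, LPR 1 or LPR 3 (0.0516 to 0.0769). Klk1, tissue kallikrein, and Umod, uromodulin, both known to raise TRPV5 at the cell surface, had changes of 0.02 and -0.21 and did not pass (adjusted p = 0.945 and 0.213 by limma). Of 17 genes of paracellular calcium and magnesium transport, 2 were lower and 15 did not pass, with a median of -0.29. Those were Trpm6, the magnesium channel of the distal convoluted tubule, at 1.72-fold, and Egf, the growth factor that stimulates it, at 1.44-fold (adjusted p = 0.0392 and 0.0426 by limma). Trpm6 failed without MRL 1, MRL 2, MRL 3 or LPR 3 (0.0727 to 0.115), and Egf with any 1 of the 6 mice left out (0.0594 to 0.126).

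Markers of the tubule segments were read beside these genes. All 7 markers of the distal convoluted tubule had changes below 0, with a median of -0.52, and 3 of them were lower, beside 67.5% of all genes with a change below 0 and 5.47% lower. The 3 were Trpm6, Klhl3 (1.70-fold, adjusted p = 0.0159 by limma) and Stk39 (1.44-fold, adjusted p = 0.0197 by limma). The mean level of the list was -0.13 to -0.04 in MRL mice and -1.08 to -0.42 in LPR mice. It was lowest in LPR 1, the mouse with the lowest Calb1 and Trpv5, but this was not particular to the segment. LPR 1 was also lowest for intercalated cells, the proximal tubule, calcium transporter isoforms, vitamin D metabolism, hormone and calcium receptor signalling and paracellular genes. The thick ascending limb was lowest in LPR 2 and the connecting tubule and principal cell list in LPR 3. The count of 3 was 1 without MRL 1, MRL 2, MRL 3 or LPR 3. Slc12a3, the thiazide-sensitive cotransporter that defines the segment, gave 1.97, 1.92 and 1.91 against 1.02, 1.79 and 1.56 and did not pass (change -0.47, adjusted p = 0.159 by limma). Pvalb, parvalbumin of the early part of the segment, gave 3.92, 4.03 and 4.36 against 2.27, 3.86 and 3.27 and did not pass either (change -0.97, adjusted p = 0.139 by limma). The part of this segment in the results on Calb1, Trpv5 and Slc8a1 was not tested.

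Of the 8 markers of the connecting tubule and principal cells, none passed by limma (1 was lower at an unadjusted p under 0.05), and their median was 0.02. The list pools the connecting tubule with principal cells, so it cannot describe the connecting tubule alone. The list's mean was 1.85 to 1.96 in MRL mice and 1.81 to 1.89 in LPR mice. Aqp2, the water channel of principal cells, had a change of 0.07 (adjusted p = 0.843 by limma). Of the intercalated cell markers 4 of 7 were lower, led by Slc26a4, pendrin, and Atp6v1g3 (1.59-fold and 1.54-fold, adjusted p = 0.0159 and 0.0301 by limma), with Car2 and Atp6v0d2 after them. In the thick ascending limb 1 of 6 was lower, and in the proximal tubule 3 of 9, Slc5a12, Slc5a2 and Lrp2. Of all genes 5.47% were lower. The medians of these 3 lists were -0.46, -0.41 and -0.36. With 1 mouse left out the counts were 0 to 3, 0 to 2 and 1 to 2, and that of the intercalated cells was 0 without MRL 3 or LPR 3. None of 5 podocyte markers and none of 3 tested adrenal markers passed by limma (1 higher and 1 lower at an unadjusted p under 0.05). Of 7 genes of tubular injury 2 were higher, Vcam1 (change 2.28) and Lcn2 (change 2.14), beside 7.12% of all genes. The 5 that did not pass were Havcr1 (change 0.34), Krt20 (0.53), Spp1 (0.30), Clu (-0.06) and Sox9 (-0.72). Of 5 endothelial markers 1 was lower, Kdr.

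**Figure D4:**
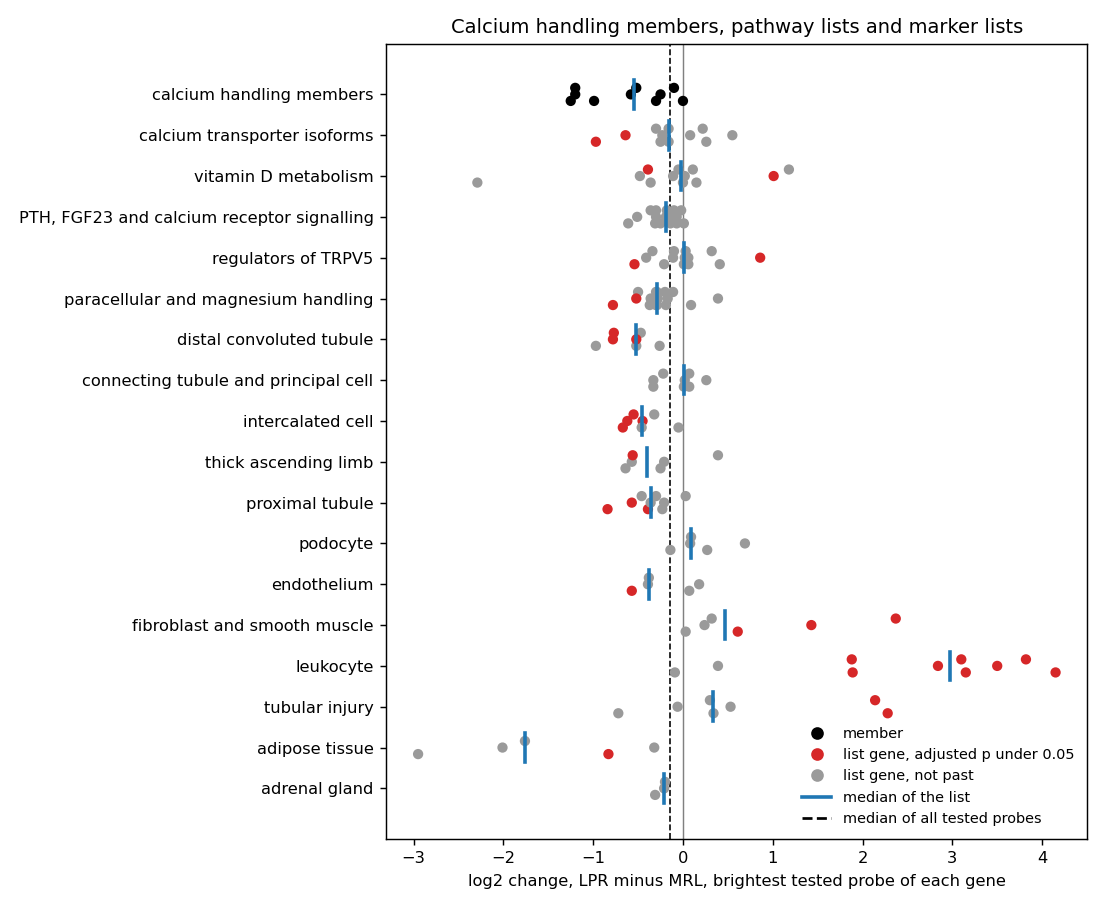
Log2 change (LPR minus MRL, horizontal axis) of the brightest tested probe of each gene, for the 10 calcium handling genes with Calb1 included (black) and for the pathway and marker lists (red where the adjusted p was under 0.05, grey otherwise). Blue bars are medians of each row, and the dashed line is the median of all tested probes. The bar of the calcium handling genes counts Calb1, which was chosen for its fall, and their median without Calb1 is -0.52. The distal convoluted tubule has a median of -0.52, the connecting tubule and principal cells 0.02 and the leukocyte markers 2.97.

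The genes most like Calb1 across the mice were found by the smallest root mean square difference of mean-centred log2 levels over the 6 arrays, among 28987 probes. They were Gm12589 (0.10), Kcns1 (0.14), Ren1 (0.16), Cyp2c55 (0.17) and Mt2 (0.21). In each of them LPR 1 was the lowest mouse and the groups did not overlap, as in Calb1. The search picks profiles with these traits, so they are not a separate result. Every LPR mouse was below every MRL mouse in 26.9% of all tested probes. Ren1 encodes renin, made by juxtaglomerular cells, and gave 0.53, 0.49 and 0.32 in MRL mice and -1.38, -0.20 and -0.95 in LPR mice. Mt2 encodes a metallothionein and gave 6.75, 7.25 and 7.42 against 5.53, 6.46 and 5.90. The genes most like Kl by the same measure were Hykk (0.04), Spink4, Xpo7, Slc22a21 and Upp2 (0.05 each). In these MRL 2 was the highest and LPR 1 the lowest mouse, as on the brighter Kl probe to which they were matched. On the other Kl probe LPR 3 was the lowest. These profiles share the same 6 arrays and the difference between the groups, and they are a description.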

How the data were processed

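TA of 6 mouse kidneys used 1-colour Agilent arrays with probes placed on mm9. The paper names Trizol for the RNA, whereas the labels name an RNeasy kit. The authors deposited the intensity of each spot from Agilent Feature Extraction 12.0.3.1 (version per the submitters' processing notes), with background subtracted and without scaling between arrays. The authors also deposited a table in which each array's signal is a multiple of its own 75th percentile, used as an alternative. Here, log2 intensities were lowered by the 75th percentile of each array, outlier and control spots were left out, and spots of a probe were averaged. Probes well above background on at least 3 of 6 arrays were tested with limma 3.58.1 in R 4.3.3 (lmFit and eBayes, Benjamini-Hochberg, threshold 0.05), all 6 arrays in 1 fit with no covariate. The brightest tested probe stands for a gene. A fold given as "at least" sets the brighter group's mean against the dimmer group's signals, each taken as no less than the dimmest signal well above background on that array. Nothing says more of how the mice were sampled, so p-values measure the spread between these 6 samples, whose number limits the precision. An exact permutation test of 3 against 3 cannot give a p below 0.1, so none was run.

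The members, the gene lists and the tests were chosen with earlier results of these data known. The genes named are all members, up to 4 genes past the threshold with the largest change in each list, 10 genes of distal transport and hormone action named whatever their values, and the 5 genes most like Calb1 and Kl. A gene of these that is not reported here remains in the counts. Gene names are those of the array, and all 146 list genes were found there, 1 (Plaat3) by an older symbol. Promoters came from RefSeq (GRCm38.p6), and their positions are on that build only. The alternatives were quantile, median and detected-probe scaling, normexp with an offset of 50, the authors' table, other filters, a floor, outlier spots kept, an intensity trend, the slide column or replicate number as a block, the mean of a gene's probes, the methods' t-test on log2 and linear values, and leaving out each mouse. On simulated data with 39916 probes limma recovered 149 of 200 changed probes with 3 false calls. The log2 changes were 1 or 2 in size, in equal numbers, and 58 of the smaller and 91 of the larger were recovered. No change below 1 was simulated. The simulated noise was independent between probes, with no array effect and no common shift, so the false calls do not give their rate in the real data. The plots were made in python 3.11.15 with matplotlib 3.10.9.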

Additional observations from a re-analysis of the deposited data

How the results depend on the processing

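With 3 mice a group, the directions of the members were steadier than their calls, and Trpv5 passed under every alternative run. Of the 4 members lower by the brightest probe, 1 passed without a filter on dim probes, with the slide column as a block and by the methods' t-test on log2 and on linear values, and of the 7 probes 2, 1, 2 and 2 passed. The tested probes lower (2462) were 4498 with normexp, 1093 without the filter, 463 with the slide column, and 1385 and 1353 by the methods' t-test on log2 and linear values, and the probes higher (2606) were 1458 with the slide column and 1736 and 1444 by that test. At the unadjusted threshold of the methods, this test gave 3578 probes higher and 7175 lower on log2 values and 3460 and 7384 on linear values. It was run here on all tested probes, whereas the paper selected genes by fold before its t-test. The slide column, as read from the array names, could be fitted only because LPR 1 shares a column with the 3 MRL mice. The cause of each difference was not tested, and dim probes near background are limited by their signal.

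The replicate numbers of the labels were checked as a pairing. The deviations of mice with the same number correlated at 0.146, 0.029 and 0.017, so the numbers were not taken to pair the mice. With the replicate block 1117 probes were lower, 1 member and 3 member probes passed, and the Vdr probes had adjusted p of 0.0758 and 0.0668. Under the block the genes passing were 1 each for the calcium transporter isoforms, vitamin D metabolism, TRPV5 regulators, paracellular genes and podocytes, and 0 each for intercalated cells, the thick ascending limb, endothelium and adipose tissue.

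The genes of a list that passed in either direction changed as follows. With quantile scaling they were 1 each for transporter isoforms (2 in the report), vitamin D metabolism (2), hormone signalling (0) and paracellular genes (2), and 0 for the thick ascending limb (1). With a median shift transporter isoforms, vitamin D and paracellular genes had 1 each and the thick ascending limb 0, and with a percentile over detected probes transporter isoforms and vitamin D had 1 and the thick ascending limb 0. With normexp the counts were 5 for vitamin D, 2 for hormone signalling, 6 for TRPV5 regulators (2), 1 for the connecting tubule (0), 4 for the thick ascending limb, 5 for the proximal tubule (3), 1 for podocytes (0), 2 for endothelium (1) and 3 for adipose tissue (1). An intensity trend gave 5 for vitamin D, 1 for hormone signalling, 5 for TRPV5 regulators, 1 for the connecting tubule, 3 for the thick ascending limb, 1 for podocytes, 2 for endothelium and 2 for adipose tissue. The authors' table gave 1 for vitamin D, and the mean of a gene's probes 5 for TRPV5 regulators. Without the filter they were 1 for transporter isoforms, 1 for vitamin D, 0 for paracellular genes, 2 for intercalated cells (4), 0 for the thick ascending limb, 1 for the proximal tubule and 0 for endothelium. Probes above background on all 6 arrays gave 1 for hormone signalling, 2 for the thick ascending limb and 2 for adipose tissue, and a floor gave 2 for adipose tissue. The slide column gave 1 for TRPV5 regulators and 0 for transporter isoforms, intercalated cells, the thick ascending limb, the proximal tubule, endothelium and adipose tissue. The methods' t-test on log2 values gave 0 for transporter isoforms, paracellular genes, the thick ascending limb, endothelium and adipose tissue, and 1 for vitamin D, the distal convoluted tubule (3), the connecting tubule and tubular injury (2). On linear values it gave 0 for transporter isoforms, paracellular genes, the thick ascending limb, endothelium and tubular injury, 1 for vitamin D, hormone signalling, the distal convoluted tubule and the connecting tubule, and 2 for intercalated cells.

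Without 1 mouse at a time, 1958 to 2370 probes were higher and 760 to 2269 lower, 1 to 3 members and 2 to 6 of their probes were lower and 0 higher. The lists ranged from 1 to 2 for transporter isoforms, vitamin D, TRPV5 regulators and the proximal tubule, 0 to 2 for paracellular genes, the thick ascending limb and adipose tissue, 1 to 3 for the distal convoluted tubule, 0 to 3 for intercalated cells, 0 to 1 for podocytes and endothelium, 2 to 3 for fibroblasts and tubular injury, 7 to 8 for leukocytes, and 0 throughout for hormone signalling, the connecting tubule and the adrenal gland.

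The direction turned only for genes with changes near 0. Pth1r was 0.01 with a median shift and with normexp, 0.02 with a percentile over detected probes, 0.13 without MRL 2, 0.11 without LPR 1 and 0.00 without LPR 3. The Atp2b1 probes were 0.05 and 0.06 with the slide column, and the brighter ranged from -0.18 without LPR 1 to 0.02 without LPR 2. Klk1 was -0.31 with the slide column, -0.08 without MRL 1 and from -0.13 without LPR 2 to 0.19 without LPR 1, and Aqp2 was -0.02 without LPR 1 and from -0.12 without MRL 2 to 0.28 without MRL 1.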

Other observations

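A probe for Fgf23, the bone hormone that acts through Klotho, gave levels of 3.81, 3.30 and 3.18 in MRL kidneys and 3.28, 3.04 and 3.55 in LPR kidneys, well above background on all 6 arrays. The groups overlapped, and the change was -0.14 (adjusted p = 0.670 by limma). The gene was named after its values were seen, and whether the probe also reads another transcript was not tested. Slc34a3, a phosphate transporter of the proximal tubule under the control of FGF23 and parathyroid hormone, also named after its values were seen, gave 4.45, 4.89 and 4.39 against 3.79, 4.12 and 3.98. The groups did not overlap, and its change of -0.61 did not pass (adjusted p = 0.0602 by limma).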
